A study of Mus musculus with 550 samples.

Results

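The comparison set 58 Dnmt3a knockout cells (3AKO) beside 54 wild-type cells (WT), all taken from embryoid bodies on day 3 of differentiation. Embryoid bodies are free-floating aggregates in which embryonic stem cells leave pluripotency once the cytokine LIF is withdrawn. By their labels, the cells were the library batch 1 3AKO cells of plate 211 and the library batch 1 WT cells of plate 209. Batch 1 alone was taken because Dnmt3a counts went against the batch 2 mutant labels of day 3, so the choice also used Dnmt3a. Of the 486 cells of the series that passed the filters, 112 belong here. A cell was kept with at least 50000 assigned reads, at least 2000 detected genes and at most 50% mitochondrial reads, which left 58 of 62 3AKO cells and 54 of 62 WT cells. The deepest cell left out had 5495 reads in 3AKO and 40578 in WT, and the shallowest cell kept had 93817 and 74159. Both groups were made from E14 embryonic stem cells (strain 129/Ola), the WT cells with no edit and the 3AKO cells with a homozygous Dnmt3a knockout (Dnmt3a -/-). Per the study's methods 2 independent 3AKO clones were used, but the labels do not say from which clone a cell came. Single cells were sorted into plate wells, and their full-length polyadenylated RNA was amplified by an adapted Smart-seq2 method without molecular identifiers. The 3AKO and WT cells compared lay on different plates, and each group counts as 1 sample. Genotype, plate and clone therefore cannot be told apart, and no test was possible. Values are summed CPM (assigned reads of a gene per 1000000 assigned reads) with exact 95% Poisson intervals and shares of cells with exact (Clopper-Pearson) 95% binomial intervals, and both cover counting error only.

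DNMT3A and DNMT3B are the de novo DNA methyltransferases, which add methyl groups to cytosines of unmethylated CG pairs, and DNMT3L is a catalytically inactive partner that stimulates both. As cells move from naive pluripotency, through a primed state like that of the post-implantation epiblast, towards the germ layers, genome-wide methylation rises. The methylation laid down in this window keeps a set of meiotic and other germline genes silent in somatic cells, and imprinted genes are read from 1 parental copy according to methylation inherited from the gametes.

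Depth was alike in both groups. Reads per kept cell reached 385587 in 3AKO (median 217608) and 364494 in WT (median 211599), with median mitochondrial shares of 6.31% and 5.11%. No kept cells had identical counts. A further 25 WT cells of day 3 formed library batch 2 on the same WT plate, with a median mitochondrial share of 13.5%, and they served as a second WT reference. Day 9 cells, 61 3AKO and 60 WT on other plates, were used as values of the same genotypes at a later time. The batch 2 mutant cells of day 3 were not used, because Dnmt3a stood at 335 CPM in the library labelled 3AKO and at 12.8 CPM in the library labelled 3BKO (Dnmt3b -/-), against those labels. The batch 2 library labelled 3BKO lay on plate 211 with the batch 1 3AKO cells. That labelled 3AKO lay on plate 210 with the batch 1 3BKO cells.

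The targeted gene was low in the batch 1 3AKO cells. Because the choice of batch had used Dnmt3a counts, this is no independent check of the label. Dnmt3a (chr12:3806007-3914443, GRCm38, plus strand; ENSMUSG00000020661.15) ranged over WT cells from 0 to 2519 CPM with a median of 248, and over 3AKO cells from 0 to 207 CPM with a median of 6.32. All 58 3AKO cells lay below the WT median, though the ranges overlapped at their low ends. Summed over cells, Dnmt3a was 455 CPM (443 to 468) in WT and 25.8 CPM (23.1 to 28.7) in 3AKO, 17.6-fold lower (15.8 to 19.8). With each cell thinned to 50000 reads drawn at random, Dnmt3a had at least 1 read in 52 of 54 WT cells (87.3 to 99.5%) and in 29 of 58 3AKO cells (36.6 to 63.4%), and without thinning in 98.1% and 60.3%. The share in 3AKO depended on the draw and was 43.1%, 39.7% and 36.2% in the other 3 draws made. The remaining reads were not resolved by exon in the deposited table, so whether they came from the disrupted allele is unknown.

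The other genes of de novo methylation differed in opposite directions. Dnmt3l ranged over cells around a median of 43 CPM in WT and 338 CPM in 3AKO, and 91.4% of 3AKO cells lay above the WT median. Its sum was 132 CPM in WT, 74.3 CPM in WT batch 2 and 431 CPM in 3AKO, 3.27-fold higher (3.09 to 3.47) than in WT batch 1. Dnmt3l was also higher in 3AKO at day 9, at 160 against 53.3 CPM, whereas 3BKO cells of day 3 held 52.2 CPM. Dnmt3b was 2.3-fold lower (2.21 to 2.4) in 3AKO by sum, at 261 against 600 CPM, with 523 CPM in WT batch 2. The Dnmt3b medians over cells were closer, at 142 CPM in 3AKO and 179 CPM in WT, and 41.4% of 3AKO cells lay above the WT median, so both groups overlapped widely. At day 9 the Dnmt3b log2 ratio of 3AKO to WT was 0.31. Exons of Dnmt3a overlap those of Dnmt3aos and exons of Dnmt3l those of Aire, and the strand used in counting is not stated, so their counts may include reads of those genes.

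**Figure D1:**
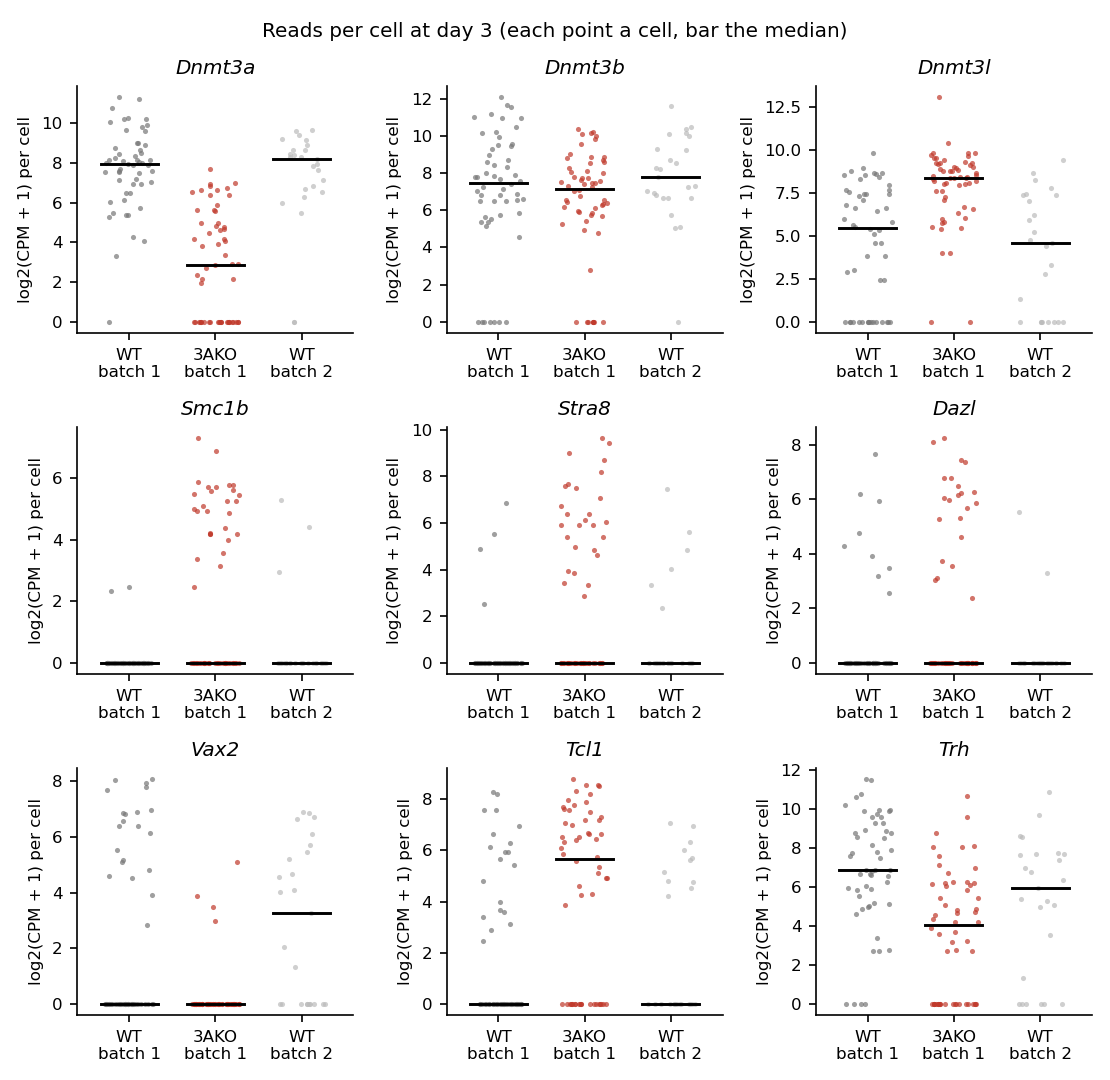
Each point is 1 kept day 3 cell, with log2(CPM + 1) of 9 genes on the vertical axes and the groups WT batch 1 (54 cells), 3AKO batch 1 (58 cells) and WT batch 2 (25 cells) on the horizontal axes; bars mark group medians. Dnmt3a is low in the 3AKO cells and Dnmt3l high, Smc1b has reads in 48.3% of 3AKO and 3.7% of WT batch 1 cells, and Vax2 in 6.9% and 38.9%.

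Genes of maintenance methylation and demethylation stood close to WT batch 1, though not all did to WT batch 2. None of the 6 detected maintenance genes reached a 2-fold difference from batch 1, including Dnmt1, the maintenance methyltransferase (log2 ratio -0.30), and Uhrf1, which brings it to replicated DNA (-0.15). Of 7 demethylation genes, 6 were detected and none reached 2-fold, with the dioxygenases Tet1 at -0.30 and Tet2 at -0.09. Against WT batch 2, however, the replication-linked genes Hells and Pcna were -1.33 and -1.46 and Gadd45b was 1.99. Tet3 was below the detection limit in both groups and is listed with the chromosome 6 genes below. None of 17 detected Polycomb genes reached 2-fold against WT batch 1, whereas Ezh2 (-1.06), Eed (-1.88), Pcgf6 (-1.52) and Epop (1.95) did against WT batch 2.

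Across all genes, 10858 had at least 1 read in at least 20% of the kept cells of either group, and their median log2 ratio of (CPM + 1), 3AKO minus WT, was 0.01. A gene is called here when that ratio is at least 1 in size, a 2-fold difference. By this rule 554 genes were higher in 3AKO (5.1% of those detected) and 372 were lower (3.43%). Among the 10199 genes that reached the detection limit in WT itself, 291 were higher (2.85%) and 371 lower (3.64%). The WT cells of batch 2 differed from those of batch 1 far more than 3AKO did, with 1320 genes higher (12%) and 1810 lower (16.4%) of 11008 detected. WT batch 2 values are therefore given beside those of WT batch 1 for most genes named below. In all, 301 genes were at least 2-fold higher (2.77%) and 117 at least 2-fold lower (1.08%) in 3AKO than in each of them. In the comparisons used beside it, 4.28% of genes were called higher and 5.42% lower in 3AKO at day 9, and 3.44% higher and 2.6% lower in 3BKO at day 3, which shares the WT cells. Of the 301, 61.1% were also higher at day 9, where 44.8% of all these detected genes were, and of the 117, 70.9% were also lower at day 9, where 55.2% were. The median log2 ratio of the 10858 genes was 0.31 against WT batch 2 and -0.07 at day 9. List medians given for those comparisons are to be read beside these values and not beside 0.

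**Figure D2:**
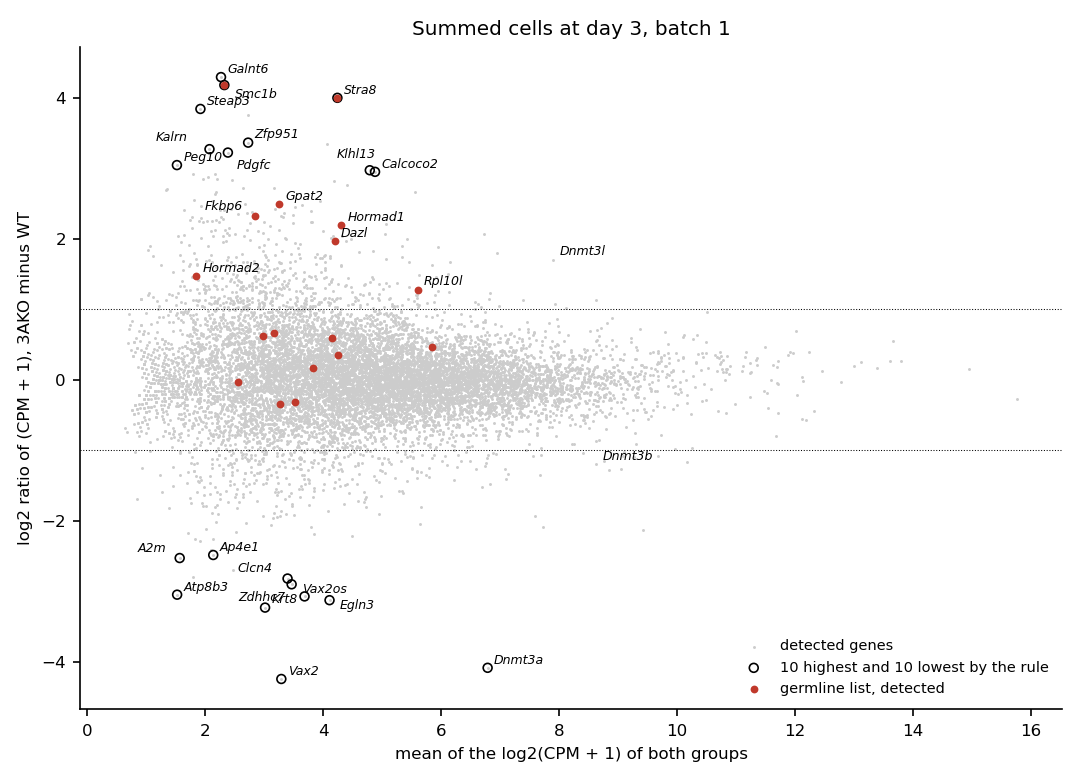
Log2 ratio of (CPM + 1), 3AKO minus WT at day 3, on the vertical axis against the mean log2 level of both groups on the horizontal axis, 1 point per detected gene; dotted lines mark 2-fold differences. The 20 genes named by rule are circled and the 17 detected germline genes are red, 14 of them above 0.

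The genes highest in 3AKO by a rule on size included members of meiosis, and most were near silent in WT. The rule took the 10 highest and 10 lowest ratios among called genes that kept a 2-fold difference against WT batch 2 and without the single highest cell of each group. Smc1b, the meiosis form of a cohesin subunit, had 2 reads in all WT cells, 11 in WT batch 2 and 261 in 3AKO, a ratio of 114 (31.4 to 950). After thinning it was seen in 0 of 54 WT cells (an interval of 0 to 6.6%) and in 34.5% of 3AKO cells (22.5 to 48.1), and without thinning in 3.7% and 48.3%. At day 9 Smc1b was 27.4 CPM in 3AKO and 7.22 CPM in WT. Stra8, the retinoic-acid-induced gene that starts meiosis, was 3.73 CPM (2.69 to 5.05) in WT, 6.14 CPM in WT batch 2 and 74.7 CPM (70.0 to 79.6) in 3AKO. Stra8 reads were concentrated, with 61.9% of the WT reads in 1 cell, and at day 9 its order was the other way, at 13.3 CPM in 3AKO and 26.9 CPM in WT.

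The remaining genes of the 10 highest had varied roles. Galnt6, an enzyme that starts mucin-type O-glycosylation, had 1 read in WT, 7 in WT batch 2 and 261 in 3AKO (log2 ratio 4.29). Steap3, a ferrireductase of the transferrin cycle, had 0 reads in WT, 2 in WT batch 2 and 171 in 3AKO, at least 49.98-fold higher against a floor of 3 reads over the WT group. Peg10, a paternally expressed imprinted gene derived from a retrotransposon, had 0 reads in WT, 2 in WT batch 2 and 93 in 3AKO, at least 27.2-fold higher.

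Peg10 was at 18 CPM in 3AKO and 1.79 CPM in WT at day 9, and no Peg10 read was found in 3BKO at day 3. Pdgfc, a platelet-derived growth factor, was 15.0 against 0.711 CPM, and Kalrn, a guanine nucleotide exchange factor, 12.1 against 0.356 CPM. Zfp951, a zinc finger gene, was 20.3 against 1.07 CPM. Klhl13, an X-linked adaptor of a cullin ubiquitin ligase, was 76.5 against 8.89 CPM, and Calcoco2, a selective autophagy receptor, 80.8 against 9.6 CPM. With WT batch 2 as reference the log2 ratios were 3.69 for Pdgfc, 2.37 for Kalrn, 3.97 for Zfp951, 2.96 for Klhl13 and 3.93 for Calcoco2.

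Calcoco2 was the other way at day 9, at 8.46 CPM in 3AKO and 86.7 CPM in WT. Of the 10 genes, 7 were higher in 3AKO at day 9, and 8 had entered the tested set only through their detection in 3AKO. Galnt6, Pdgfc and Klhl13 share exon bases with Galnt6os, Gm16000 and Gm14523, so their reads are uncertain, as are those of Zfp951, which has close paralogs.

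The genes lowest in 3AKO were led by Vax2, a homeobox gene of the ventral retina. Vax2 (chr6:83711264-83738313, plus strand) was 41.7 CPM (38 to 45.6) in WT, 18.4 CPM in WT batch 2 and 1.25 CPM (0.713 to 2.03) in 3AKO, 33.4-fold lower (20.4 to 59). It was seen in 33.3% of thinned WT cells and 5.17% of thinned 3AKO cells, and without thinning in 38.9% and 6.9%. At day 9 it was 47.9 CPM in WT and 3.37 CPM in 3AKO. 3BKO cells of day 3 held 60.2 CPM of Vax2. The neighbouring antisense transcript Vax2os was 29.2 CPM in WT, 15.9 CPM in WT batch 2 and 3.04 CPM in 3AKO, and at day 9 64.4 and 7.24 CPM.

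Vax2 and Vax2os overlap in position on opposite strands, so reads of one may be counted for the other. Egln3, an oxygen-sensing prolyl hydroxylase, was 50.05 against 4.83 CPM, and Zdhhc7, a protein palmitoyltransferase gene, 36.4 against 3.43 CPM, with log2 ratios against WT batch 2 of -2.81 and -1.45. Atp8b3, a phospholipid flippase gene, had 82 reads in WT, 11 in WT batch 2 and 0 in 3AKO, at least 31.2-fold lower against a floor of 3 reads. A2m, a broad protease inhibitor, had 69 reads in WT, 40 in WT batch 2 and 3 in 3AKO, a ratio of 26.2 (8.61 to 130), and was the other way at day 9 with 8.03 CPM in 3AKO and 0.787 in WT.

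Krt8, a keratin of simple epithelia, was 23.8 against 1.64 CPM, but 1 cell held 39.9% of the WT reads and 3AKO was higher at day 9 (0.47). Clcn4, a chloride and proton exchanger, was 27 against 2.96 CPM, and Ap4e1, a subunit of the adaptor complex AP-4, 9.42 against 0.857 CPM. Relative to WT batch 2 the log2 ratios were -1.74 for Krt8, -1.63 for Clcn4 and -1.25 for Ap4e1. Krt8 and Clcn4 share exon bases with Gm36026 and Gm45631. Dnmt3a itself, whose counts had entered the choice of batch, was also among the 10 lowest, and 6 of the 10 were lower in 3AKO at day 9.

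Germline genes as a list lay above WT. Of 34 listed genes of meiosis, the piRNA pathway and germ cell identity, 17 were detected, 8 were called higher and none lower, beside the 5.1% of all genes called higher. The median log2 ratio of the 17 was 0.66 against WT batch 1, 1.07 against WT batch 2 and 0.51 at day 9, where 10 of 17 lay above 0. Over all detected genes these medians were 0.01, 0.31 and -0.07. Of the 17, 6 passed the detection limit only through 3AKO and so had to differ. Among the 11 detected in WT itself 2 were called higher, beside 2.85% of such genes, and the median was 0.47. Counted over the whole list in thinned cells, between 0 and 11 members were seen per WT cell (median 4), between 1 and 16 per 3AKO cell (median 6) and between 0 and 9 per WT batch 2 cell (median 4), so the groups overlapped widely.

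The called germline genes belong to a few known roles. Dazl, an RNA-binding protein needed for germ cell development, was 8.27 CPM (6.67 to 10.1) in WT and 35.3 CPM (32.1 to 38.7) in 3AKO, with 54.8% of the WT reads in 1 cell. WT batch 2 held 1.18 CPM of Dazl, and at day 9 it was 103 CPM in 3AKO and 16.6 CPM in WT. Hormad1, which marks unsynapsed meiotic chromosome axes, was seen in 9 of 54 thinned WT cells (7.92 to 29.3%), 11 of 25 thinned WT batch 2 cells and 29 of 58 thinned 3AKO cells (36.6 to 63.4%), and without thinning in 25.9%, 44% and 77.6%. Its sum was 8.27 CPM in WT, 24.7 CPM in WT batch 2 and 41.3 CPM in 3AKO, so Hormad1 was the 1 called gene of the list that did not reach 2-fold against WT batch 2 (log2 ratio 0.72).

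Hormad2, its paralog, was 4.99 against 1.16 CPM. Gpat2, an acyltransferase linked to piRNA production, was 21.7 CPM in 3AKO and 3.02 CPM in WT, and at day 9 29.6 and 8.18 CPM. Fkbp6, a co-chaperone of the piRNA pathway, was 15.0 against 2.22 CPM, and at day 9 48 against 18.5 CPM. Rpl10l, the testis retrogene copy of a ribosomal protein gene, was 74.7 against 30.2 CPM but is nearly identical to its parent gene, so its reads are uncertain. Against WT batch 2 the log2 ratios were 1.46 for Hormad2, 1.90 for Gpat2, 2.42 for Fkbp6 and 1.66 for Rpl10l.

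The sequences before these genes are shown because promoters of germline genes that methylation is known to silence are rich in CG pairs. They are the 250 bases before the transcription start in RefSeq (GRCm38.p6), written 5′ to 3′ on the strand of the gene, with every CG in capitals. Smc1b is at chr15:85131958-85132207 (minus strand), Dazl at chr17:50293621-50293870 (minus), Hormad1 at chr3:95559427-95559676 (plus) and Stra8 at chr6:34920698-34920947 (plus).
Smc1b: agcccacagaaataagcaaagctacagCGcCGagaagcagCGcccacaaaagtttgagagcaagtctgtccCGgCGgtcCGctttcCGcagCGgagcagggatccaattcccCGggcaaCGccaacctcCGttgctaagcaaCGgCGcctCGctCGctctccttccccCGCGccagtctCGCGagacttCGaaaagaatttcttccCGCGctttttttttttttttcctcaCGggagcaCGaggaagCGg
Dazl: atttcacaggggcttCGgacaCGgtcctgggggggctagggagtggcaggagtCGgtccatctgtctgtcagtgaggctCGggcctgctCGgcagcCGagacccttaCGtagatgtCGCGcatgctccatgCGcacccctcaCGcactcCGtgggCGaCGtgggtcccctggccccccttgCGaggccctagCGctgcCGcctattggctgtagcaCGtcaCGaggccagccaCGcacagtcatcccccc
Hormad1: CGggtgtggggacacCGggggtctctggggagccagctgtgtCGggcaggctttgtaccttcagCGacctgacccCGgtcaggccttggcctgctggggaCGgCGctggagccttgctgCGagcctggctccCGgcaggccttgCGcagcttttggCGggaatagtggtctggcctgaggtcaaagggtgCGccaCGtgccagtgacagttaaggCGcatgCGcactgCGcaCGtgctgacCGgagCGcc
Stra8: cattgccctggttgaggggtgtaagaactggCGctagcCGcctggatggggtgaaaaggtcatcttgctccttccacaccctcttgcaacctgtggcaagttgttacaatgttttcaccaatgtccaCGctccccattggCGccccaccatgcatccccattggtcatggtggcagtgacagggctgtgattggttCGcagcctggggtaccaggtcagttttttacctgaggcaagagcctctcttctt
The window held 25 CG pairs in Smc1b, 20 in Dazl, 19 in Hormad1 and 5 in Stra8, and the median over 32851 RefSeq promoters of this length was 6. Over the 38 promoters of the 31 germline list genes with an entry the median was 15, and over the 10 promoters of the 8 called genes it was 18. CACGTG, a palindrome read by E-box proteins such as MGA and MAX, was in 17 of the 38 (44.7%) and in 6.02% of all promoters. It occurred at 2 places in the Hormad1 window and at none in the Smc1b, Dazl and Stra8 windows. GCGGGA on either strand, part of the E2F6 motif, was in 10 of the 38 (26.3%) and in 16.9% of all promoters, and was present in the Smc1b and Hormad1 windows. Methylation of these windows was not measured in these cells.

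**Figure D3:**
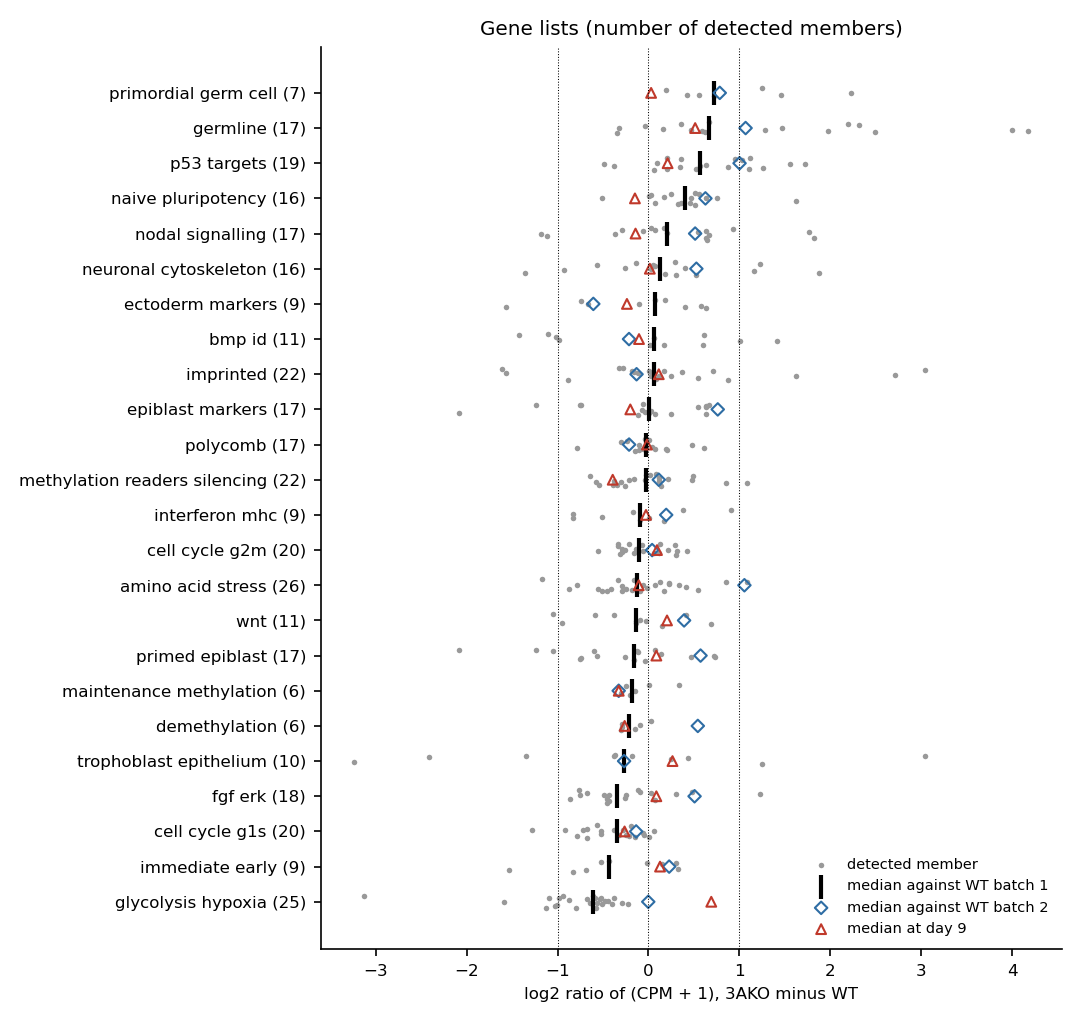
Log2 ratio of (CPM + 1), 3AKO minus WT, for the gene lists with at least 6 detected members; points are members at day 3, bars their median against WT batch 1, diamonds the median against WT batch 2 and triangles the median at day 9. The germline, p53, primordial germ cell and neuronal cytoskeleton lists lie above 0 by all of these medians, the last 2 at 0.03 and 0.02 at day 9. The glycolysis list is at -0.61 against WT batch 1, at -0.00 against WT batch 2 and at 0.69 at day 9. Over all detected genes the medians are 0.01, 0.31 and -0.07.

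Markers of primordial germ cells were also above WT batch 1. Of 12 listed, 7 were detected, all 7 lay above 0 and 3 were called higher, beside 5.1% of all genes, with a median of 0.72. Of these, Tfap2c passed the detection limit only through 3AKO. Among the 6 detected in WT itself 2 were called higher, beside 2.85% of such genes, with a median of 0.64. The median was 0.78 against WT batch 2, where 2 of the 7 lay below 0 and 1 of the 3 called genes, Kit, kept a 2-fold difference. The day 9 median was 0.03. Prdm1, the repressor that starts germ cell specification, was 5.51 CPM in WT, 16.8 CPM in WT batch 2 and 29.6 CPM in 3AKO, although 93% of the WT batch 2 reads lay in 1 cell. It was seen in 48.3% of thinned 3AKO cells, 11.1% of thinned WT cells and 12% of thinned WT batch 2 cells, and without thinning in 58.6%, 33.3% and 28%. Kit, the receptor of stem cell factor, was 22.1 against 7.38 CPM (3.43 CPM in WT batch 2), and at day 9 65.5 against 18.2 CPM. Tfap2c, a germ cell and trophoblast regulator, was 12.2 against 4.53 CPM, but 0.56 on the log2 scale against WT batch 2 (7.91 CPM) and 0.03 at day 9.

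Imprinted genes differed in both directions with a median of 0.06, which was -0.13 against WT batch 2. Of 22 detected, 3 were called higher and 2 lower, beside 5.1% and 3.43% of all genes, and Peg10, Plagl1 and Grb10 kept a 2-fold difference against WT batch 2. Besides Peg10, the paternally expressed zinc finger gene Plagl1 had 0 reads in WT, 2 in WT batch 2 and 71 in 3AKO, at least 20.8-fold higher, with 4.23 against 1.22 CPM at day 9. Zrsr1, a paternally expressed splicing factor gene, was 5.38 against 1.07 CPM, and 2.48 CPM in WT batch 2 (log2 ratio 0.87). All 3 passed the detection limit only through 3AKO, and among the 18 detected in WT itself none was called higher. Grb10, an adaptor that limits growth factor signalling, was 70.6 CPM (65.8 to 75.7) in WT, 69.7 CPM in WT batch 2 and 22.4 CPM (19.9 to 25.1) in 3AKO.

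At day 9 Grb10 was 57.9 CPM in WT and 5.37 CPM in 3AKO, and 3BKO cells of day 3 held 93.8 CPM. Nnat, a paternally expressed membrane protein of the nervous system, was 8.34 against 26.6 CPM at day 3 (15.1 CPM in WT batch 2, log2 ratio -0.79) but higher in 3AKO at day 9, at 98.2 against 30.4 CPM. Plagl1 shares exon bases with Gm27741 and Nnat with Gm23134. Parental copies were not distinguished in the counts.

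Naive pluripotency genes were slightly above WT batch 1, and primed genes slightly below WT batch 1 but not below WT batch 2. Of 16 detected naive genes 15 lay above 0, with a median of 0.40 against WT batch 1, 0.63 against WT batch 2 and -0.15 at day 9. Over all genes these medians were 0.01, 0.31 and -0.07. Of the 16, 1 was called higher, beside 5.1% of all genes. That gene, Tcl1, a coactivator of the kinase AKT, was 31.8 CPM (28.6 to 35.3) in WT, 22.7 CPM in WT batch 2 and 100.4 CPM (95 to 106) in 3AKO. It was seen in 27.8% of thinned WT cells and 63.8% of thinned 3AKO cells, and without thinning in 37% and 65.5%. Of 17 primed epiblast genes 3 were called lower and none higher, beside 3.43% and 5.1% of all genes, and none of the 3 calls held against both WT batches. The median of -0.16 against WT batch 1 was 0.57 against WT batch 2, where that of all genes was 0.31.

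Trh, the thyrotropin-releasing hormone precursor and a primed epiblast gene, was 437 CPM in WT, 134 CPM in WT batch 2 and 102 CPM in 3AKO, so batch 2 lay nearer to 3AKO than to its own genotype. The kinase gene Pim2 (-1.24) and the WNT effector Lef1 (-1.05) were also called lower, and neither kept this against WT batch 2 (-0.54 and 0.39). Fgf5, a growth factor of the primed epiblast, was 21.1 against 36.2 CPM, and Otx2, a homeobox factor of the same state, 49.3 against 83.3 CPM. Both Fgf5 and Otx2 were lower than in WT batch 2 and at day 9 too, with Otx2 sharing exon bases with Otx2os1 and Gm49154.

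Genes of the NODAL pathway, which keeps the epiblast state and patterns it, had ligand and inhibitor ratios above 0. Nodal was 240.2 against 151 CPM (log2 ratio 0.67), and its feedback antagonists Lefty1 (0.63) and Lefty2 (0.64) and the inhibitory Smad7 (0.93) had like ratios, none called. All of the 3 ligand and antagonist genes were further above WT batch 2, at 1.44, 1.26 and 1.27. Of 17 detected genes of the list 2 were called higher and 2 lower, beside 5.1% and 3.43% of all genes. Among the 16 detected in WT itself 1 was called higher and 2 lower, beside 2.85% and 3.64% of such genes. The convertase gene Pcsk6 (1.82) and the signal transducer Smad3 (1.77) were called higher, also against WT batch 2 (1.70 and 2.03). The convertase gene Furin (-1.18) and the receptor gene Acvr2a (-1.12) were called lower, but neither reached 2-fold against WT batch 2 (-0.11 and -0.97). Among 11 detected BMP and ID genes 2 were called higher and 3 lower, beside 5.1% and 3.43% of all genes. Of these, 8 were detected in WT itself, with 1 called higher and 3 lower, beside 2.85% and 3.64% of such genes. The inhibitors of DNA binding split against WT batch 1, with Id4 (1.41) and Id3 (1.01) higher and Id1 (-1.43) and Id2 (-1.02) lower. None of these 4 calls held against WT batch 2, where they were -0.04, 0.13, -0.94 and -0.70. Bmp4 was lower against both (-1.11 and -1.04). Of 18 FGF and ERK genes only the receptor gene Fgfr2 was called higher (1.23), beside 5.1% of all genes. Fgfr2 was 0.15 against WT batch 2, and it passed the detection limit only through 3AKO. The median of that list was -0.34 against WT batch 1 and 0.51 against WT batch 2. Of 11 WNT genes only Lef1 was called lower, beside 3.43% of all genes, and against WT batch 1 alone.

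The labels give no cell type beyond embryoid body, so the identity of the cells was read from marker lists. By the rule of at least 3 markers with at least 2 reads each in a thinned cell, all 54 WT and all 58 3AKO cells were positive for epiblast markers. Pou5f1, the core pluripotency factor, was 411 CPM in WT and 394 CPM in 3AKO and had reads in every cell. Ectoderm positivity was found in 34 of 54 WT cells (48.7 to 75.7%), 16 of 25 WT batch 2 cells and 26 of 58 3AKO cells (31.7 to 58.5%), with overlapping intervals. Without thinning the shares were 88.9% in WT and 84.5% in 3AKO, and with at least 5 reads asked per marker the thinned share was 6.39 percentage points higher in 3AKO, so both the size and the direction of this difference depended on the rule.

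Meso-endoderm positivity was found in 2 of 54 thinned WT cells and in 0 of 58 thinned 3AKO cells (an interval of 0 to 6.16%), and without thinning in 4 WT and 3 3AKO cells. That list had 1 detected member, Eomes, at 18.8 CPM in WT, 18.5 CPM in WT batch 2 and 6.78 CPM in 3AKO. A single WT cell held most WT reads of the endoderm genes Gata6 (100%), Pdgfra (100%), Dab2 (97.6%), Dkk1 (94.9%) and Sox17 (89.1%). Of markers of other cells, none of 14 feeder fibroblast genes was detected, and 1 of 17 genes listed for the 2-cell state was. That gene, Eif1a, had reads in every cell of both groups, at 225 CPM in WT and 231 CPM in 3AKO. Its reads therefore set no cells apart as like the 2-cell state, and 14 of the 17 had no read in either group. Of 10 detected trophoblast and epithelial genes 2 were higher and 3 lower, beside 5.1% and 3.43% of all genes. Against both WT batches 1 was higher and 3 lower, beside 2.77% and 1.08% of all genes. Both higher genes passed the detection limit only through 3AKO. Among the 7 detected in WT itself none was higher and 3 were lower, beside 2.85% and 3.64% of such genes. Among neuronal and cytoskeletal genes, Dpysl3, a collapsin response mediator, was 118 CPM in 3AKO, 31.3 CPM in WT and 15.8 CPM in WT batch 2, and also higher at day 9 (1.19).

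Targets of p53, the DNA damage response factor, were mostly above WT. Of 19 detected, 17 lay above 0 and 6 were called higher, beside 5.1% of all genes, and 2 of the 6, Phlda3 and Mdm2, were called against both WT batches, beside 2.77% of all genes. The list had medians of 0.57 against WT batch 1, 1.00 against WT batch 2 and 0.21 at day 9, beside 0.01, 0.31 and -0.07 over all genes. Phlda3, which restrains AKT, was 94.9 CPM in 3AKO, 39.1 CPM in WT and 22.2 CPM in WT batch 2, and was seen in 72.4% of thinned 3AKO cells and 48.1% of thinned WT cells (77.6% and 51.9% without thinning). The apoptosis genes Pmaip1 (1.73) and Perp (1.56) were called against WT batch 1 but were 0.15 and 0.71 against WT batch 2. Mdm2, the ubiquitin ligase of p53, was 146 against 70.9 CPM (72.4 CPM in WT batch 2), yet 1 cell held 42.7% of the 3AKO reads and without the highest cell of each group the log2 ratio was 0.53. Cdkn1a, the p53-induced cell cycle inhibitor, was 88.9 CPM in 3AKO and 84.9 CPM in WT. Of 20 genes of DNA replication in G1 and S phase 18 lay below 0 against WT batch 1, with a median of -0.35. Only Mcm2 was called lower (-1.28), beside 3.43% of all genes. Of these genes 12 lay below 0 against WT batch 2, where the median was -0.14, that of all genes 0.31, and Mcm2 was -0.28. Of 20 G2 and M phase genes none was called against WT batch 1, and the median was -0.10 there and 0.04 against WT batch 2.

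Glycolytic and hypoxia-induced genes were lower in 3AKO than in WT batch 1. Against WT batch 2 they split around 0, which is below the median of all genes there. All 25 detected members lay below 0, with a median of -0.61 and 6 called lower, beside 3.43% of all genes. Against WT batch 2 the median was -0.00, where that of all genes was 0.31, with 12 members above 0 and 13 below. Only Egln3 and Hk2 stayed at least 2-fold lower there. Summed over the list, the level was 30820 CPM in WT, 17253 CPM in WT batch 2 and 20746 CPM in 3AKO. At day 9 the list was the other way, with a median of 0.69. Hk2, a hexokinase of the first step of glycolysis, was 43.9 CPM in WT, 29.3 CPM in WT batch 2 and 13.9 CPM in 3AKO, and Slc2a3, a glucose transporter, was 786, 419 and 386 CPM.

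Lower genes were not spread evenly over the genome. Chromosome 6 held 60 of the 372 lower genes, 12.6% of its 478 detected genes, and chromosome 8 held 46, or 7.42% of 620, beside 3.43% of all genes. Chromosome 12 came near to chromosome 8 in this share, with 28 of 423 (6.62%). In windows of 5 Mb with at least 10 detected genes, 10 of 369 windows had a median log2 ratio of -0.5 or below, 3 on chromosome 6 and 7 on chromosome 8. They lay in 3 stretches, whose bounds were set after the window medians were seen. On chromosome 6 from 80 to 95 Mb the median of 88 genes was -0.997, 81 of the 88 lay below 0 and 44 were called lower, with none higher. On chromosome 8 from 0 to 60 Mb the median of 180 genes was -0.52 with 23 called lower, and from 110 to 130 Mb that of 117 genes was -0.51 with 12 called lower. The 3 stretches together held 385 genes and 79 of the 372 lower genes, and the 10315 genes outside all marked stretches had a median of 0.02, with 522 higher and 288 lower.

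**Figure D4:**
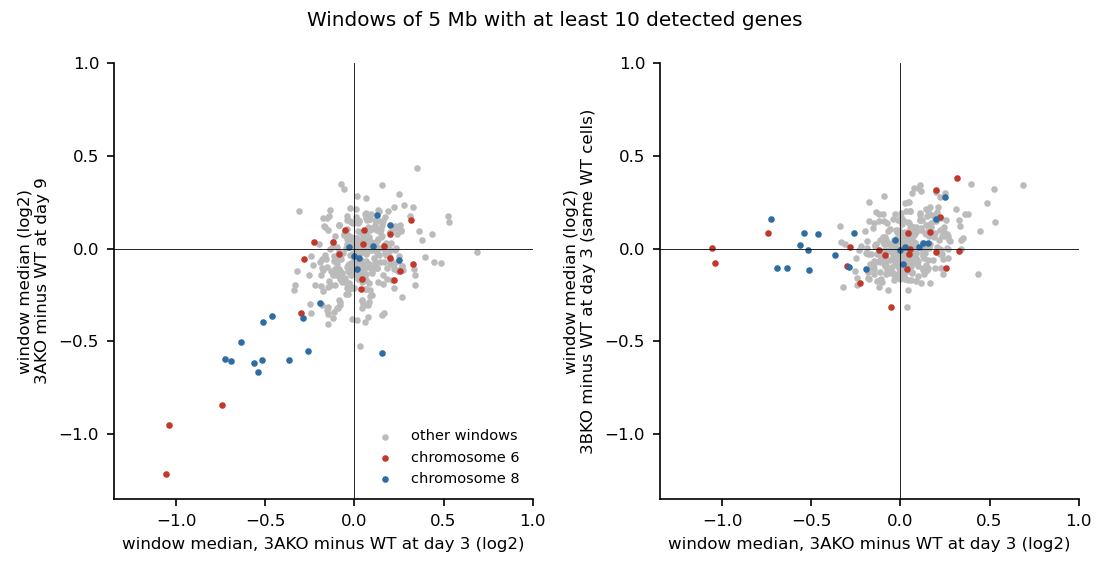
Median log2 ratio per 5 Mb window (369 windows) at day 3, 3AKO minus WT, on the horizontal axes, against the same windows in 3AKO at day 9 and in 3BKO at day 3 on the vertical axes; chromosome 6 is red and chromosome 8 blue. The 10 windows at or below -0.5 lie at -0.39 or lower at day 9 and between -0.11 and 0.16 in 3BKO.

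The same stretches were low in 3AKO at day 9, whose WT and 3AKO cells are not shared with day 3. The chromosome 6 stretch had a median of -1.03 in day 9 batch 1 and -0.78 in day 9 batch 2. The first chromosome 8 stretch had medians of -0.57 and -0.52, and the last -0.41 and -0.33. In 3BKO cells of day 3 the 3 medians were -0.02, 0.02 and -0.04. Against WT batch 2, where the median of all genes was 0.31, they were -0.54, -0.29 and 0.09, and WT batch 2 itself had 98 windows at or below -0.5 against WT batch 1.

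The chromosome 6 difference was present cell by cell. Genes of that stretch took 5974 to 13481 CPM in WT cells (median 8787), 5958 to 11400 in WT batch 2 cells (median 7303) and 3183 to 6434 in 3AKO cells (median 4030). Of 58 3AKO cells 57 lay below the lowest WT cell, so the groups hardly overlapped, and the ratio of the medians was 0.459. At day 9, 58 of 61 3AKO cells lay below the lowest WT cell, with a ratio of 0.480. In the first chromosome 8 stretch the medians were 12280 in WT and 8175 in 3AKO, and 40 of 58 3AKO cells lay below the lowest WT cell. The last chromosome 8 stretch overlapped more at day 3, with medians of 14187 in WT, 10051 in WT batch 2 and 9983 in 3AKO. There 9 of 58 3AKO cells lay below the lowest WT cell, and 57 of 61 at day 9. DNA copy number was not measured in these cells, and its part in these values was not tested.

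**Figure D5:**
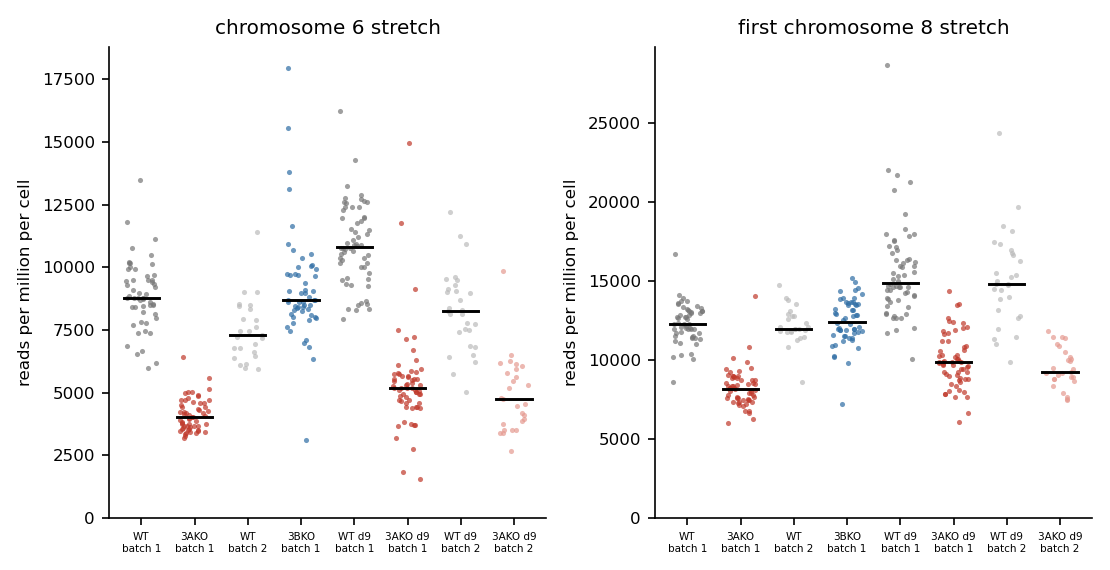
CPM per cell from the genes of the chromosome 6 stretch (80 to 95 Mb, 88 genes) and of the first chromosome 8 stretch (0 to 60 Mb, 180 genes), 1 point per cell in 8 groups, with bars at the medians. In the chromosome 6 panel the day 3 3AKO cells lie between 3183 and 6434 and the WT batch 1 cells between 5974 and 13481.

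Several genes described above lie in these stretches. Vax2, Vax2os, Trh, Hk2 and Mcm2 are in the chromosome 6 stretch, as is Tet3, a dioxygenase that starts demethylation, which had 59 reads in WT and 22 in 3AKO and was 0.0717 CPM in 3AKO and 10.2 CPM in WT at day 9. Further genes of that stretch, chosen after their log2 ratios were seen, were Gcfc2, a splicing factor (-2.17), Isy1, a spliceosome subunit (-1.74), and Tia1, an RNA-binding protein of stress granules (-1.70), with -1.95, -1.43 and -2.62 against WT batch 2. The first chromosome 8 stretch held Lig4, a DNA ligase of end joining (-1.73), and the RecQ helicase gene Wrn (-1.36), and the last held Zdhhc7, Itgb1, an integrin subunit (-1.04), and Egln1. Lig4 against WT batch 2 was -2.91, Wrn -2.43 and Itgb1 -1.49. Of the 6 glycolytic and hypoxia genes called lower, 3 lie in these stretches, namely Hk2, Egln1 and Ankrd37.

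A window with a cluster of zinc finger genes on chromosome 4 stood out in the other direction, and its zinc finger genes did so against WT batch 1 alone. In the 5 Mb window that holds Zfp600, 23 of 65 genes were called higher (35.4%), beside 5.1% of all genes. The median of the 65 was 0.53 against WT batch 1 and 0.14 at day 9. Against WT batch 2 it was 0.51, where that of all genes was 0.31. Of 16 detected Zfp genes there 13 were called higher, and all 13 were lower in 3AKO than in WT batch 2. Zfp600 was 1.02 against WT batch 1 and -2.84 against WT batch 2, and Zfp992 was 2.23 and -0.06, both genes chosen after their values were seen. These genes are close paralogs and reads that map to several places were left out of the counts, so their values are uncertain.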

How the data were processed

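Single-cell libraries were read as single ends on a NextSeq 500. Per the labels and the study's methods, the authors trimmed reads (Trim Galore 0.5.0), aligned them to GRCm38.p6 (STAR 2.7.1a) and assigned uniquely mapped reads to GENCODE genes (featureCounts 1.6.1); FastQC 0.11.2 was also listed. The deposited values were raw counts per gene name and cell, with no normalization, and the strand setting was not given in the sources used here. Another 26 columns carry no sample and were not used.

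Groups came from the labels of each cell (genotype, day, batch). Counts of kept cells were summed per group and scaled to CPM, and log2 ratios used CPM + 1. The detection limit was 1 read in at least 20% of the kept cells of either group, and a call was a log2 ratio of at least 1 in size. Shares of cells were taken after drawing 50000 reads per cell at random with a fixed seed. With 1 sample per group no test was run, and intervals come from scipy 1.17.1 (pandas 2.3.3, numpy 2.4.6, Python 3.11.15). Doublets were not searched for, since wells received 1 sorted cell. The steps were tested on simulated data. Named genes were the 10 highest and 10 lowest called ratios that kept their sign and a size of at least 1 against WT batch 2 and without the highest cell of each group, leaving out mitochondrial genes, unnamed models and pseudogenes. The cells compared, the lists and the rules were chosen with earlier results of these data known. Positions came from GENCODE vM21 (GRCm38), which held 97.0% of the 55228 gene names, and promoters from RefSeq. Alternatives were other pseudocounts (0.1 and 10), detection limits (none, 10% and 40%), cell filters (100000 reads, 4000 genes, 25% mitochondrial), no mitochondrial genes, per-cell means, thinned counts, the highest cell left out, edgeR 4.0.16 (TMM) and DESeq2 1.42.0 (median-ratio) size factors in R 4.3.3, and WT batch 2 or both WT batches as reference. The values of a few genes are not reported here.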

Additional observations from a re-analysis of the deposited data

Results flagged for a closer look

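Each of these values pointed one way at day 3 and the other way at day 9 in the same genotype comparison, and the differences between days were not tested. Calcoco2, the autophagy receptor, had a log2 ratio of 3AKO to WT of 2.95 at day 3 and -3.21 at day 9, and A2m, the protease inhibitor, -2.53 and 2.34. The median of the glycolysis and hypoxia list was -0.61 at day 3 and 0.69 at day 9, and at day 3 it depended on the WT batch. The median of the 3 detected Y-linked genes was 1.76 at day 3, with Uty (2.42) and Ddx3y (1.76) called higher (0.88 and -0.58 against WT batch 2), and -0.68 at day 9. Uty passed the detection limit only through 3AKO. The days were on different plates, so day, plate and culture cannot be told apart.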

How the results depend on the processing

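No paired analysis was possible because the labels give no replicate numbers and each group is 1 sample. WT batch 2 in place of WT batch 1 had the widest effect, with 2146 genes higher and 1339 lower (301 and 107 of them shared with batch 1), log2 ratios of -3.32 for Dnmt3a, -1.001 for Dnmt3b and 2.52 for Dnmt3l, and, over its own detected genes, medians of -0.54 for the chromosome 6 stretch and -0.29 and 0.056 for the chromosome 8 stretches. There the Y-linked median was reversed, at -0.58. With both WT batches together 580 genes were lower and 569 higher, so 49.5% of the called genes were higher in place of 59.8%, and Dnmt3a was -3.81, Dnmt3b -1.12, Dnmt3l 2.00 and the last chromosome 8 stretch -0.35. A pseudocount of 10 CPM left 106 genes higher and 85 lower, with Dnmt3a at -3.70 and the 3 stretches at -0.59, -0.37 and -0.40. Detection in 40% of cells left 258 higher and 196 lower and 4 germline genes, and no detection limit gave 1202, 870 and stretch medians of -0.51, -0.23 and -0.29. Thinned counts gave -3.92 for Dnmt3a and 1.90 for Dnmt3l, means of single-cell CPM -3.89 for Dnmt3a and 2.02 for Dnmt3l, the stricter cell filter 1.46 for Dnmt3l, and leaving out the highest cell -1.08 for Dnmt3b. In 1 other draw of reads 36.2% of 3AKO cells had a Dnmt3a read, and with 5 reads asked per marker the ectoderm share was 6.39 percentage points higher in 3AKO, in place of a difference of -18.1, which over 3 other draws was -5.94 to -19.99. The causes were not tested beyond what each setting removes. Values of the named genes kept their sign under all 240 combinations of gene and setting tried, and 236 stayed at least 1 in size. These settings included WT batch 2 as reference and the highest cell left out, which the naming rule itself had required, so those values had to hold. The named genes were also the most extreme ratios of the same cells, so these counts are no independent support. The following were chosen after seeing the data: the stretches themselves, the other draws and counts without the chromosome 6 and 8 stretches, which left 552 genes higher and 293 lower. Differences under 2-fold at a few CPM are not resolved at this depth, and no value has a replicate.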

Other observations

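Lists outside the report's comparisons gave few called genes in 3AKO, as did all genes, of which 5.1% were higher and 3.43% lower. These small counts set none of the lists apart. Of 26 detected genes of the amino acid stress response 1 was higher, Cth, an enzyme of cysteine synthesis (1.08), and 1 lower, Trib3, a stress pseudokinase (-1.18), with a median of -0.13 against WT batch 1 and 1.06 against WT batch 2, where Cth was 0.82 and Trib3 0.25. Of 9 immediate early genes Junb was lower (-1.53, and -0.81 against WT batch 2), and of 9 interferon and antigen presentation genes none was called against WT batch 1. None of 11 Rhox genes, a methylation-sensitive X-linked homeobox cluster, reached the detection limit, with a summed level of 33.8 CPM in WT, 0.236 CPM in WT batch 2 and 19.8 CPM in 3AKO. Of the WT sum 31.9 CPM came from Rhox5, all of it in 1 cell, and without the highest cell of each group the Rhox5 log2 ratio was 2.35 in place of -1.09, so the order of these sums rests on 1 cell.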
